A study of Mus musculus with 6 samples.

Results

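The genes that fold, modify, translocate and degrade proteins in the endoplasmic reticulum (ER), and the sensors that report on that work, were described in LSKs (Lin- Sca-1+ c-Kit+ cells of the bone marrow, among which are the hematopoietic stem cells and multipotent progenitors). The members were 34 genes listed by symbol, all of which were found among the 55487 genes of the deposited table, and all 34 passed the filter on low counts. RNA sequencing had been performed on LSKs of 3 Tespa1+/+ and 3 Tespa1-/- samples. All 6 came from male mice of 8 to 10 weeks that had received a total body irradiation of 5 Gy, with RNA taken on day 13, so that both groups were irradiated and no unirradiated sample was analysed. The Tespa1-null allele (Tespa1tm1Smoc) was carried in every cell of the mouse and had been backcrossed to C57BL/6 for more than 6 generations, and the controls were wild-type littermates. The sources used here do not say whether mice were pooled for a replicate. The p-values therefore set the difference between the groups against the spread among the 3 samples within each group.

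Proteins that are secreted, stored in granules or placed in membranes enter the ER through the SEC61 channel, are glycosylated and folded there by chaperones and disulfide isomerases, and are sent to the cytosol for degradation when folding fails. When unfolded protein accumulates, 3 membrane sensors respond: IRE1 (gene Ern1), which cuts the Xbp1 mRNA so that it encodes an active transcription factor, ATF6, which is cleaved to release a transcription factor, and PERK (gene Eif2ak3), which slows translation. XBP1 and ATF6 raise the transcription of chaperone and degradation genes, in part through the ER stress element of their promoters. This unfolded protein response is known in hematopoiesis for its role in the survival of stressed stem cells and in the build-up of secretory cells such as plasma cells and granule-forming myeloid precursors.

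The promoters of the members are shown first. The list holds targets of the unfolded protein response, which acts in part through the ER stress element. A raised share of that element among the members is therefore not independent of how the list was chosen. RefSeq promoters of build GRCm38.p6 (250 bases before to 50 bases after each start site) were matched for 28 of the 34 members. The ER stress element, CCAAT followed by 9 bases and CCACG, was present without mismatch on either strand in the promoters of 9 of these 28 genes (32.1%), against 37 of 27025 genes (0.137%) with a promoter in the table. The shorter element ATTGG, 1 base, CCACG was present in 2 members (7.14%), Herpud1 and Dnajb11, against 12 genes (0.0444%) in the table. Its CCACG and the inverse of its ATTGG are also the ends of the first element; on their own, CCACG was present in the promoters of 78.6% of the matched members and 35.5% of all genes, and CCAAT in 78.6% and 41.1%. The stretches with the elements are printed below in the direction of the gene, with the element in capitals and up to 40 bases on each side where these lie before the start site and outside annotated exons; the elements of Hspa5 and Dnajb11 lie in annotated exons, and there the element alone is shown. An element that reads CGTGG, 9 bases, ATTGG lies on the opposite strand.
Calr (chr8:84847035-84847133, minus strand): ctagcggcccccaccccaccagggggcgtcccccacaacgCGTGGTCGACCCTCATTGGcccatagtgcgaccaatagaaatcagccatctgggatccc
Canx (chr11:50325760-50325858, minus strand): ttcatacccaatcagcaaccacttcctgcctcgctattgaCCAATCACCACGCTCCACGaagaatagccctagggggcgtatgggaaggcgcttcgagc
Creld2 (chr15:88819480-88819578, plus strand): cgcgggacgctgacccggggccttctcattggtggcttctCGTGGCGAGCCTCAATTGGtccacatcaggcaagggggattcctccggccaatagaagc
Derl3 (chr10:75893202-75893300, plus strand): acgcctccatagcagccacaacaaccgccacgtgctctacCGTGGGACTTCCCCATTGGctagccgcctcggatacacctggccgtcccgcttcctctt
Dnajb11 (chr16:22857852-22857862, plus strand): ATTGGCCCACG
Dnajc3 (chr14:118937787-118937885, plus strand): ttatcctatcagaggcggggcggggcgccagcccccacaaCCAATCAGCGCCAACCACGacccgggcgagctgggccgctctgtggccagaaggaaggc
Herpud1 (chr8:94386337-94386427, plus strand): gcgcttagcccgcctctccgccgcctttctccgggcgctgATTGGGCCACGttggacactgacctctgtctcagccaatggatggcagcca
Hsp90b1 (chr10:86705598-86705694, minus strand): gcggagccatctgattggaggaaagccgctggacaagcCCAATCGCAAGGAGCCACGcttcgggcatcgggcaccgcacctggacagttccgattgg
Hsp90b1 (chr10:86705510-86705591, minus strand): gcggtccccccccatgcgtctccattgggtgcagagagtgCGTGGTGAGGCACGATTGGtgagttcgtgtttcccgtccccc
Hspa5 (chr2:34772025-34772043, plus strand): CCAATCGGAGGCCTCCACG
Pdia6 (chr12:17266451-17266544, plus strand): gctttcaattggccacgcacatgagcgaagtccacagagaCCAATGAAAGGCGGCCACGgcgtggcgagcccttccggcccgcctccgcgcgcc
Syvn1 (chr19:6046492-6046575, plus strand): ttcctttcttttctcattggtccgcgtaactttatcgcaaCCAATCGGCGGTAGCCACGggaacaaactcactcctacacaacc
Hsp90b1, the ER form of HSP90, held 2 elements, on opposite strands. The elements closest to the start site on its upstream side were those of Syvn1, from position -44 to -26, of Herpud1, from -52 to -42, and of Hspa5, from -65 to -47, whereas that of Dnajb11 lay at 8 to 18, after the start site. A match of letters is a description of the sequence and not of binding.

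The libraries and the targeted gene were then checked. Total counts ranged from 14344753 to 30576981 in the Tespa1+/+ samples and from 12856630 to 17684702 in the Tespa1-/- samples. Tespa1 (ENSMUSG00000034833) was at 34.5, 32.7 and 36.0 CPM (counts scaled by TMM factors to a common library total) in Tespa1+/+ LSKs and at 15.3, 14.3 and 14.2 CPM in Tespa1-/- LSKs, a log2 fold change of -1.23 (edgeR adjusted p 7.0e-06, SE 0.07). Of the genes that define the sort, Kit was at 333 CPM in Tespa1+/+ and 169.6 CPM in Tespa1-/- LSKs, and Ly6a, which encodes Sca-1, at 50.5 and 40.4 CPM, where the difference did not pass the test (edgeR adjusted p 0.109). Of the markers of the lineage gate, Cd3e was counted 8, 7 and 4 times in Tespa1+/+ samples and 0 times in each Tespa1-/- sample, Ly6g had 0 and then 7, 8 and 4, and Itgam, which encodes CD11b, was at 30.3 and 20.7 CPM. Itgam shares 3450 of its 5024 exon bases with a protein-coding gene on the same strand, so its reads may be split. Across all genes, fold changes fell with gene length: over 10029 genes with a mean above 3 on the log2 CPM scale, the union exon length and the log2 fold change had a Spearman's rho of -0.617, as a description across genes. For this reason each main value below was also computed with an offset for gene length, after which rho was -0.057.

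The genes of ER protein folding were higher in Tespa1-/- than in Tespa1+/+ LSKs. The 34 members together held 1.209%, 1.198% and 1.204% of all counts in Tespa1+/+ samples and 1.658%, 1.646% and 1.678% in Tespa1-/- samples. With a fold over 1.5 at an edgeR adjusted p under 0.05 (the rule for a call), 17 of the 34 members were higher in Tespa1-/- LSKs, 1 was lower and 16 were not called, where 14.0% of the 15332 genes tested were called higher and 19.2% lower. Of the 16, 11 rose by less than the fold of the rule, Atf6 fell by less than it, and 4 did not pass the test. At any fold with an adjusted p under 0.05, 28 members were higher and 2 lower, against 31.5% and 31.8% of all genes tested. The 3 samples of 1 group lay above the 3 of the other for 31 members, which held for 69.1% of all genes, and in 29 of the 31 the Tespa1-/- samples were the higher ones. The median log2 fold change of the members was 0.57, and that of all genes tested was 0.00. With the length offset, 18 members were called higher and 1 lower, where 8.36% of 15320 genes were called higher and 15.1% lower, and the median of the members was 0.63. A total of 13 members were called higher in both fits, and the log2 fold change was above 0 for 32 members in each. These are bulk libraries, in which more cells of a type and more RNA per cell cannot be told apart.

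**Figure D1:**
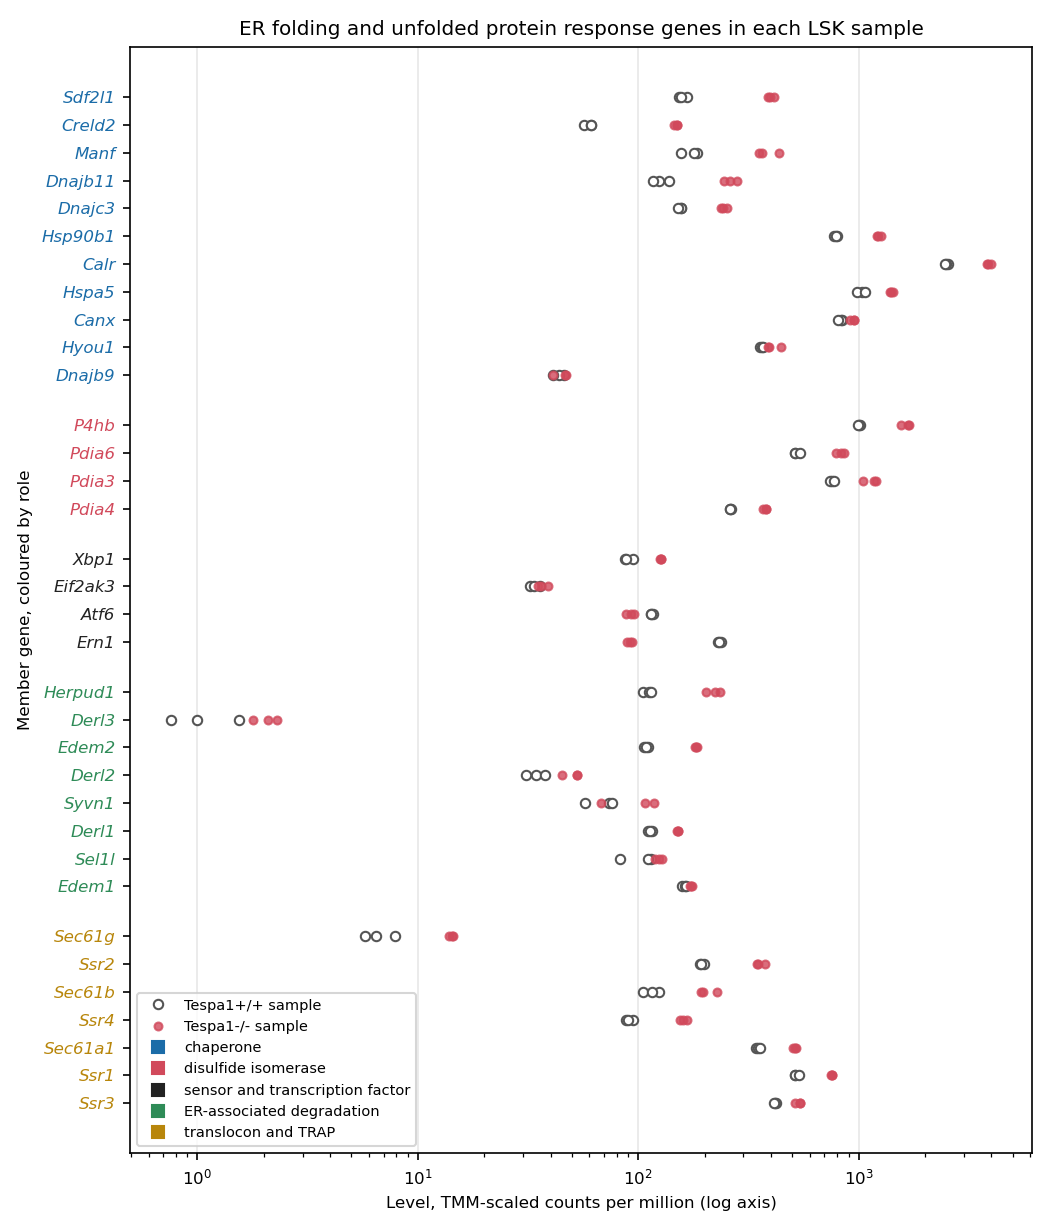
Level of each of the 34 members in each of the 6 LSK samples, as CPM on a log axis, with the members ordered by role and, within a role, by fold change. Open circles are the 3 Tespa1+/+ samples and filled circles the 3 Tespa1-/- samples; the groups overlap for Dnajb9, Eif2ak3 and Syvn1, and the Tespa1-/- samples lie on the low side for Ern1 and Atf6.

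Of the 11 chaperones and their cofactors, 7 were called higher and none lower, where 14.0% of all genes tested were called higher and 19.2% lower. With the length offset, 6 of the 11 were called higher and none lower, where 8.36% and 15.1% of the genes tested were. The levels of the 11 summed to 6225 ± 70.1 CPM in Tespa1+/+ and 9354 ± 107 CPM in Tespa1-/- LSKs (mean ± SD, n = 3 each). Calr, the lectin chaperone calreticulin that holds calcium and folds glycoproteins, was the most abundant member, at 2535, 2502 and 2473 CPM in Tespa1+/+ and 3805, 3874 and 3987 CPM in Tespa1-/- samples. Every Tespa1-/- sample lay above every Tespa1+/+ sample, and the log2 fold change was 0.64 (edgeR adjusted p 1.6e-06, SE 0.02). With the length offset it was 0.52, below the fold of the rule for a call. Per length, calreticulin was at 609 FPKM in Tespa1+/+ and 883 FPKM in Tespa1-/- LSKs (counts scaled by gene length and library total), against 153 and 195 FPKM for Hspa5 and 113 and 120.0 FPKM for Canx.

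Hspa5, which encodes BiP, the HSP70 of the ER lumen and the member most often used to follow the unfolded protein response, was at 1037, 985 and 1066 CPM in Tespa1+/+ samples and at 1389, 1397 and 1425 CPM in Tespa1-/- samples. The groups did not overlap, and the log2 fold change of 0.45 (edgeR adjusted p 2.2e-05, SE 0.03) was under the fold of the rule for a call. Hsp90b1, the HSP90 of the ER, rose from 802, 776 and 791 CPM to 1261, 1224 and 1207 CPM, a log2 fold change of 0.64 (edgeR adjusted p 2.1e-06, SE 0.03). It shares 415 exon bases with a pseudogene on the opposite strand and fewer with 2 transcripts on its own. Canx, the membrane-bound partner of calreticulin, was at 839, 832 and 802 CPM in Tespa1+/+ and at 953, 911 and 956 CPM in Tespa1-/- samples, and Hyou1, a nucleotide exchange factor of BiP, was at 357, 365 and 366 CPM and at 391, 443 and 389 CPM. Both passed the test at small folds, with log2 fold changes of 0.19 (SE 0.03) and 0.17 (SE 0.05). The call of Hyou1 at any fold was lost without replicate 1 or without replicate 2 of Tespa1+/+ (edgeR adjusted p 0.0709 and 0.052). It was also lost with total counts (log2 fold change 0.07, edgeR adjusted p 0.30) and with limma-trend on both FPKM scales (adjusted p 0.35 on each). With the length offset the log2 fold change of Hyou1 was 0.50 (edgeR adjusted p 0.00024).

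Without the length offset, the 3 largest rises among the members were those of Sdf2l1, Creld2 and Manf, small proteins of the ER lumen. With it they were those of Manf, Ssr1 and Dnajb11. Sdf2l1, which forms a complex with the BiP cofactor DNAJB11, was at 153, 166 and 156 CPM in Tespa1+/+ samples and at 389, 415 and 396 CPM in Tespa1-/- samples. The log2 fold change was 1.34 (edgeR adjusted p 1.2e-06, SE 0.04), and 0.95 with the length offset. Creld2, an ER resident protein induced by the unfolded protein response, was at 56.5, 61.2 and 61.0 CPM and at 145.5, 149.5 and 149 CPM. Its log2 fold change was 1.31 (edgeR adjusted p 1.3e-06, SE 0.04), and 0.97 with the length offset. Manf, a small ER protein that is also secreted, was at 185, 179 and 156 CPM and at 363, 435 and 354 CPM, which gave a log2 fold change of 1.15 (edgeR adjusted p 4.5e-05, SE 0.10) and of 1.11 with the offset. Dnajb11 itself, the J-domain partner of BiP, rose from 139, 124 and 116 CPM to 244, 280.1 and 259.7 CPM, with log2 fold changes of 1.05 (edgeR adjusted p 2.4e-05, SE 0.08) and 0.98. For these 4 genes the lowest Tespa1-/- sample lay above the highest Tespa1+/+ sample, where 69.1% of all genes tested had groups without overlap. All 4 were called in both fits. Manf shares exon bases with 3 other genes, at most 166 of its 3524.

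The other DNAJ cofactors of BiP were Dnajc3 and Dnajb9. Dnajc3, which holds unfolded clients and binds PERK, rose from 156, 157 and 151 CPM to 244, 237.5 and 253 CPM, with a log2 fold change of 0.66 (edgeR adjusted p 6.0e-06, SE 0.04). Dnajb9, a DNAJ protein that brings BiP to IRE1 and is a known target of XBP1, was at 45.9, 43.6 and 41.0 CPM in Tespa1+/+ and at 47.3, 41.2 and 46.4 CPM in Tespa1-/- samples. The groups of Dnajb9 overlapped, and its log2 fold change of 0.05 (SE 0.07) did not pass the test (edgeR adjusted p 0.596); with the length offset it was -0.11 (edgeR adjusted p 0.228).

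All 4 disulfide isomerases, which form and rearrange the disulfide bonds of folding proteins, were higher in Tespa1-/- LSKs. Of these, 3 were called higher, where 14.0% of all genes tested were. With the length offset, 2 of the 4 were called higher, where 8.36% of the genes tested were. The summed level of the 4 was 2548 ± 20.5 CPM in Tespa1+/+ and 3978 ± 181 CPM in Tespa1-/- LSKs (mean ± SD, n = 3 each). P4hb, the archetype of the family and a subunit of prolyl 4-hydroxylase, was at 1012, 1008 and 997 CPM in Tespa1+/+ samples and at 1684, 1563 and 1669 CPM in Tespa1-/- samples, a log2 fold change of 0.71 (edgeR adjusted p 3.0e-06, SE 0.03). Pdia6 rose from 513, 517 and 539 CPM to 854, 791 and 831 CPM, with a log2 fold change of 0.66 (edgeR adjusted p 6.8e-06, SE 0.04). Pdia3, which works on glycoproteins with calreticulin and calnexin, rose from 761, 742 and 771 CPM to 1172, 1046 and 1196 CPM. Its fold of 1.501 lay just above the fold of the rule (log2 fold change 0.59, edgeR adjusted p 5.2e-05, SE 0.05), and just under it was Pdia4, with a fold of 1.44 between 265, 260.3 and 261 CPM and 379.9, 369 and 379.8 CPM. Pdia3 fell under that fold with DESeq2 (log2 fold change 0.5804), the replicate block (0.584) and at least 10 counts in every sample (0.5627). The same held with total counts, limma-trend on both FPKM scales and both length offsets. It also fell under it without Tespa1+/+ replicate 2 (0.5799) or Tespa1-/- replicate 1 or 3 (0.5704 and 0.5567). Pdia3 stayed above it with RLE size factors, without a filter and without each other replicate. In all 4 genes the lowest Tespa1-/- sample lay above the highest Tespa1+/+ sample, where 69.1% of all genes tested had groups without overlap.

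Of the 4 sensors and transcription factors, none was called higher, and Ern1 was the only member that was called lower. The shares of all genes tested were 14.0% higher and 19.2% lower. The median log2 fold change of the 4 was -0.10, and 0.24 with the length offset. Ern1, the gene of the sensor IRE1, was at 229.8, 237 and 233 CPM in Tespa1+/+ samples and at 88.5, 93.3 and 92.1 CPM in Tespa1-/- samples. The groups lay far apart, with a level 2.56-fold higher in Tespa1+/+ LSKs and a log2 fold change of -1.35 (edgeR adjusted p 7.2e-07, SE 0.03). Ern1 is a long gene (8173 exon bases), and with the length offset its log2 fold change was -0.96 (edgeR adjusted p 3.7e-06), still a call. Xbp1, whose mRNA is the substrate of IRE1, was at 94.6, 87.5 and 87.6 CPM in Tespa1+/+ and at 127, 125 and 126 CPM in Tespa1-/- samples, so the substrate was higher where the sensor was lower. Its log2 fold change was 0.49 (edgeR adjusted p 5.4e-05, SE 0.04), and the table of counts per gene does not separate cut from uncut Xbp1 mRNA.

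Atf6, the sensor that is released as a transcription factor, was at 114, 117 and 114 CPM in Tespa1+/+ and at 95.5, 92.7 and 88.1 CPM in Tespa1-/- samples. Its log2 fold change was -0.32 (edgeR adjusted p 0.00039, SE 0.04), but with the length offset on union exon length it was 0.13 (edgeR adjusted p 0.0336). With an offset on the length implied by counts and FPKM it was -0.09 (edgeR adjusted p 0.0926), so its direction rests on the offset used. The gene has 9231 exon bases. Eif2ak3, the gene of PERK, was at 32.4, 35.8 and 33.7 CPM and at 39.0, 35.2 and 36.2 CPM, where the groups overlapped and the test was not passed (log2 fold change 0.11, edgeR adjusted p 0.165, SE 0.07). With the length offset its log2 fold change was 0.36 (edgeR adjusted p 0.0028). It shares 485 exon bases with a transcript on the opposite strand.

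**Figure D2:**
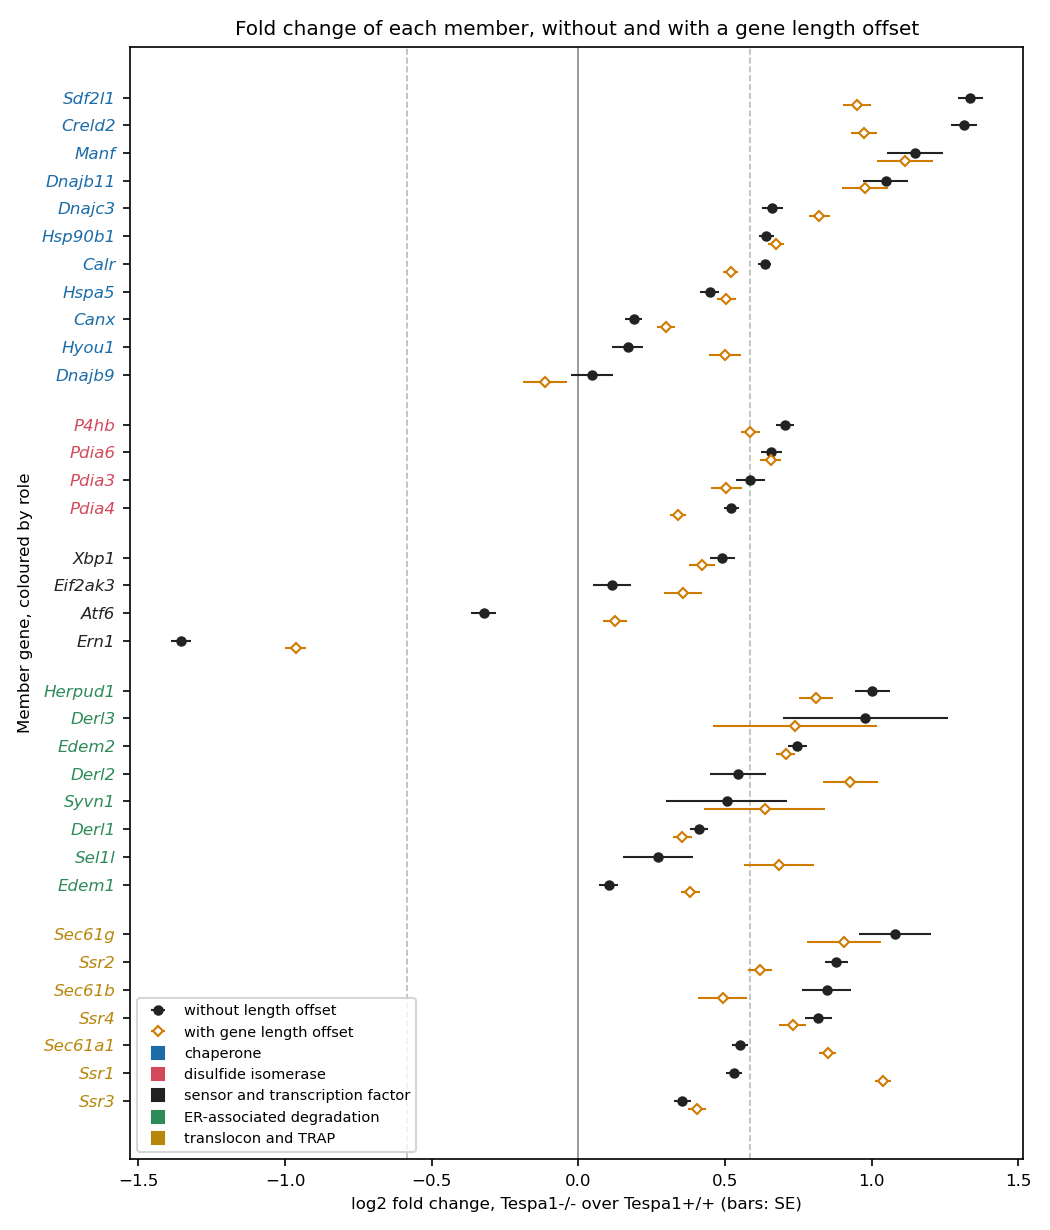
Log2 fold change of each member (Tespa1-/- over Tespa1+/+) with its SE as a bar, without the length offset as filled circles and with it as open diamonds; dashed lines mark a fold of 1.5 in each direction. Ern1 lies left of the lower line in both fits (-1.35 and -0.96), Atf6 changes side with this offset (-0.32 and 0.13), and Ssr1 moves most to the right (0.53 and 1.04).

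Of the 8 members of ER-associated degradation, which moves misfolded proteins to the cytosol, 3 were called higher and none lower. The shares of all genes tested were 14.0% and 19.2%. With the length offset, 5 of the 8 were called higher and none lower, where 8.36% and 15.1% of the genes tested were. Herpud1, a scaffold of the degradation complex and a target of the unfolded protein response, was at 105, 111 and 114 CPM in Tespa1+/+ and at 204, 236 and 223 CPM in Tespa1-/- samples. It was higher in all 3 Tespa1-/- samples, by 1.003 on the log2 scale (edgeR adjusted p 9.4e-06, SE 0.06) and by 0.81 with the offset. Edem2, a mannosidase that marks glycoproteins for degradation, rose from 106, 111 and 108 CPM to 182, 180.5 and 184 CPM, a log2 fold change of 0.75 (edgeR adjusted p 2.8e-06, SE 0.03). Its relative Edem1 was at 158, 164 and 165 CPM and at 176, 171 and 174 CPM, a log2 fold change of 0.10 (edgeR adjusted p 0.0262, SE 0.03) that lost its call at any fold without replicate 1 of Tespa1+/+ or without replicate 1 or 3 of Tespa1-/- (edgeR adjusted p 0.0683, 0.0681 and 0.0548). The call of Edem1 was also lost with total counts (0.0024, edgeR adjusted p 0.954). The same held without a filter (edgeR adjusted p 0.111), with at least 10 counts in every sample (edgeR adjusted p 0.0563), with DESeq2 (adjusted p 0.13) and with limma-trend on both FPKM scales (adjusted p 0.942 on each). The length offset raised its log2 fold change to 0.38 (edgeR adjusted p 8.1e-05).

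The ubiquitin ligase of this complex, Syvn1 (HRD1), and its adaptor Sel1l did not pass the test. Syvn1 was at 73.6, 57.6 and 76.2 CPM in Tespa1+/+ samples and at 118, 68.0 and 107.5 CPM in Tespa1-/- samples. Replicate 2 of Tespa1-/- lay within the Tespa1+/+ range, and the log2 fold change was 0.51 (edgeR adjusted p 0.066, SE 0.21). Without that sample it was 0.72 (edgeR adjusted p 0.0033), and without a filter on low counts the test was also passed (0.51, edgeR adjusted p 0.0378). Sel1l was at 82.3, 114.5 and 110.6 CPM and at 124, 119 and 128 CPM, a log2 fold change of 0.27 (edgeR adjusted p 0.0805, SE 0.12) with replicate 1 of Tespa1+/+ apart from the other 2 samples of its group. Without that sample the log2 fold change was 0.14 (edgeR adjusted p 0.0493), and without replicate 2 of Tespa1+/+ it was 0.37 (edgeR adjusted p 0.0403). With the length offset both genes were called, at 0.64 (edgeR adjusted p 0.0334) and 0.68 (edgeR adjusted p 0.0024).

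The derlins, membrane proteins through which degradation substrates leave the ER, were all higher in Tespa1-/- LSKs. Derl1 rose from 115, 111 and 113 CPM to 151, 151 and 149.5 CPM (log2 fold change 0.41, edgeR adjusted p 3.1e-05, SE 0.03) and Derl2 from 34.5, 31.1 and 37.9 CPM to 52.5, 45.1 and 53.0 CPM (0.54, edgeR adjusted p 0.0018, SE 0.09), both under the fold of the rule. With the offset Derl2 was called, at 0.93. Derl3, the derlin of secretory tissues, was the member with the lowest level, counted 18, 24 and 23 times in Tespa1+/+ samples and 39, 26 and 26 times in Tespa1-/- samples. Its call (log2 fold change 0.98, edgeR adjusted p 0.0186, SE 0.28) was lost without replicate 2 of Tespa1+/+ (edgeR adjusted p 0.0574), without replicate 1 of Tespa1-/- (0.0656) and with the length offset (0.0576). It was also lost with DESeq2 (adjusted p 0.0689), while the offset on the implied length kept it (0.89, edgeR adjusted p 0.03).

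The subunits of the SEC61 channel and of the TRAP complex, which sits beside the channel and helps signal sequences to enter, were all higher in Tespa1-/- LSKs. Of the 7, 4 were called higher, where 14.0% of all genes tested were. With the length offset, 5 of the 7 were called higher, where 8.36% of the genes tested were. The summed level of the 7 was 1695 ± 16.3 CPM in Tespa1+/+ and 2538 ± 9.02 CPM in Tespa1-/- LSKs (mean ± SD, n = 3 each). Sec61a1, the pore of the channel, was at 343, 350.4 and 355 CPM in Tespa1+/+ and at 521, 513 and 502 CPM in Tespa1-/- samples, a log2 fold change of 0.55 (edgeR adjusted p 4.4e-06, SE 0.03) and of 0.85 with the offset. Sec61b rose from 105, 124 and 115 CPM to 198, 228 and 193 CPM, with log2 fold changes of 0.85 (edgeR adjusted p 9.8e-05, SE 0.08) and 0.49. Sec61g rose from 7.87, 6.49 and 5.73 CPM to 14.3, 14.4 and 13.8 CPM, with log2 fold changes of 1.08 (edgeR adjusted p 0.00022, SE 0.12) and 0.91. The groups did not overlap for any of the 3 subunits, which also held for 69.1% of all genes tested. Per length, Sec61g was at 1.71 FPKM in Tespa1+/+ LSKs and Sec61b at 64.4 FPKM, although the proteins are parts of 1 channel; how reads that match several copies of a gene were counted was not given in the sources used here.

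The order of the TRAP subunits by fold change differed between the fits. Ssr2 rose from 191, 199 and 192 CPM to 346, 351 and 375 CPM and Ssr4 from 94.4, 87.7 and 90.0 CPM to 154.5, 166 and 159 CPM, with log2 fold changes of 0.88 (edgeR adjusted p 3.0e-06, SE 0.04) and 0.82 (edgeR adjusted p 6.8e-06, SE 0.04). Ssr1 rose from 514, 514 and 537 CPM to 754, 759 and 749 CPM and Ssr3 from 421, 419 and 413 CPM to 544, 516 and 542 CPM, with log2 fold changes of 0.53 (edgeR adjusted p 4.5e-06, SE 0.03) and 0.35 (edgeR adjusted p 4.1e-05, SE 0.03). No TRAP subunit had groups that overlapped, which also held for 69.1% of all genes tested. Ssr2 has 1864 exon bases, of which 239 overlap a processed pseudogene on the opposite strand, and Ssr1 has 10431. With the length offset the values were 1.04 for Ssr1, 0.73 for Ssr4, 0.62 for Ssr2 and 0.41 for Ssr3.

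**Figure D3:**
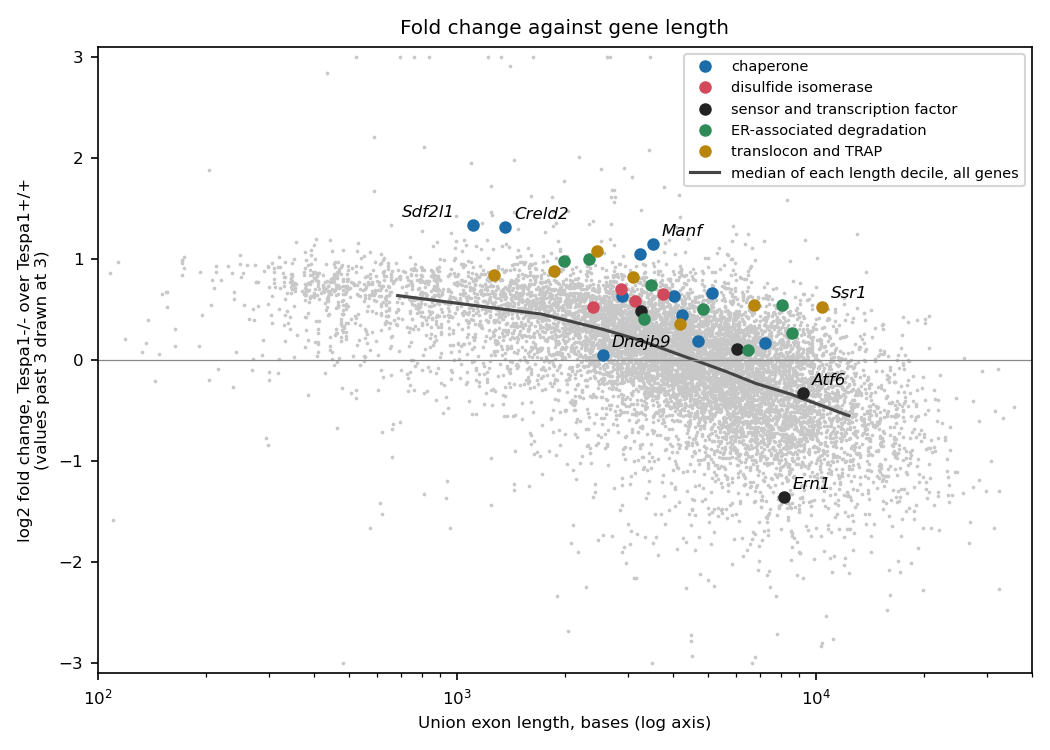
Log2 fold change (Tespa1-/- over Tespa1+/+) against union exon length in bases on a log axis; grey points are the 10029 genes with a mean above 3 on the log2 CPM scale, coloured points the members by role, and the line joins the medians of the length deciles. The line falls from 0.64 in the shortest to -0.55 in the longest decile; most members lie above it, and Ern1 lies far below it.

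Among the members, Spearman's rho of union exon length and log2 fold change was -0.682 (34 genes of the same 6 libraries, a description), and it was -0.145 with the offset. The median exon length of the members was 3494 bases and that of all genes tested 3664 bases. The offset ended the calls of Calr, Pdia3, Derl3 and Sec61b and added those of Syvn1, Sel1l, Derl2, Sec61a1 and Ssr1, so that the count of members called higher moved by 1 while its makeup changed by 9 genes.

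Set beside the promoters printed above, 6 of the 9 members with the ER stress element were called higher and none lower, with a median log2 fold change of 0.64. The 6 were Calr, Creld2, Derl3, Dnajc3, Hsp90b1 and Pdia6. Of all genes tested, 14.0% were called higher and 19.2% lower. With the length offset, the calls of Calr and Derl3 ended and Syvn1 was called higher. Of the 19 members whose promoter did not hold this element, 9 were called higher and 1 lower, with a median of 0.54. The 19 include Herpud1 and Dnajb11, which held the shorter element and were called higher (1.003 and 1.05). Among the 19, the offset ended the calls of Pdia3 and Sec61b and added those of Sel1l, Derl2 and Ssr1. Of the 28 other genes with the element, 9 were tested, with a median log2 fold change of -0.36. None of the 9 was called higher and 2, Zfp57 and Adcy3, were lower, at mean levels of 2.14 and 15.6 CPM in Tespa1+/+ LSKs. These 2 genes were named after their values were seen.

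Further genes of the pathway, which are not members, were counted from lists by function. Beside the shares of all genes that were called higher (14.0%) and lower (19.2%), 2 of 8 genes downstream of PERK were called higher and 1 lower, with a median log2 fold change of 0.36. Those called higher, Trib3 and Chac1, which are targets of the transcription factor ATF4, are named although their counts are low: Trib3 was counted 14, 33 and 20 times in Tespa1+/+ samples and 117, 101 and 70 times in Tespa1-/- samples (log2 fold change 2.64, edgeR adjusted p 2.7e-05, SE 0.20). Ppp1r15a, which directs a phosphatase to the PERK substrate eIF2α, was lower, at 170.1 and 93.5 CPM (log2 fold change -0.86, edgeR adjusted p 0.0039, SE 0.18). Atf4 and Ddit3 themselves were higher by 0.57 and 0.41 on the log2 scale, without reaching the fold of a call. With the length offset neither passed the test, at 0.38 (edgeR adjusted p 0.0559) and 0.13 (edgeR adjusted p 0.333). Of 8 genes around IRE1 and ATF6, Creb3, which encodes a transcription factor anchored in the ER, was called higher (0.62) and Mbtps2, a protease that cleaves ATF6, lower (-0.79), and neither was called with the length offset. Mbtps2 shares 2867 of its 10105 exon bases with a protein-coding gene on the same strand, so its reads may be split.

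Genes of protein entry and glycosylation were called higher more often than lower, where 14.0% of all genes tested were called higher and 19.2% lower. Of 12 subunits of the oligosaccharyltransferase, which attaches the glycan to proteins that enter the ER, 6 were called higher and none lower, with a median of 0.59; the largest rise was that of Krtcap2 (0.97, edgeR adjusted p 1.6e-05, SE 0.06). Of 18 genes of signal recognition, translocation and signal peptidase, 6 were higher and 1 lower, with a median of 0.38. The largest rise was that of Spcs2 (0.90, SE 0.10), a subunit of signal peptidase, and the 1 that was lower was Tram2 (-0.73, SE 0.07), a translocon-associated protein, which was not called with the length offset (-0.44). With that offset, 5 of the 12 and 7 of the 18 were called higher and none lower, where 8.36% and 15.1% of the genes tested were. The medians of the 2 lists were then 0.49 and 0.25.

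The other lists of the ER are read beside the 14.0% of all genes that were called higher. Of 11 further folding genes, 3 were higher, of which Fkbp11, an ER prolyl isomerase, rose most (1.69, edgeR adjusted p 3.9e-06, SE 0.08). Of 14 further disulfide enzymes, 2 were higher, a share close to that of all genes, with Pdia5 first (0.84, SE 0.07), and of 18 further genes of degradation, 4 were higher, with Selenos, a partner of the derlins, first (1.09, SE 0.07). None of these 3 lists held a gene called lower without the length offset, with which Prdx4, a peroxiredoxin of the ER, was called lower (-0.64, edgeR adjusted p 0.00042). The medians of these lists were 0.49, 0.23 and 0.15. Of 23 chaperones of the cytosol and mitochondria, 2 were called higher and 3 lower, with a median of 0.39. At any fold with an edgeR adjusted p under 0.05, 15 were higher and 4 lower, against 31.5% and 31.8% of all genes tested. With the length offset 4 were called higher and 3 lower, with a median of 0.35. Hspe1, the mitochondrial co-chaperonin, was higher (0.75, SE 0.03), without a call with the length offset (0.43). Hspa1a, the inducible HSP70 of the cytosol, was lower (-0.75, SE 0.03); Hspa1a has a near-identical copy, Hspa1b, so their reads may be split.

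**Figure D4:**
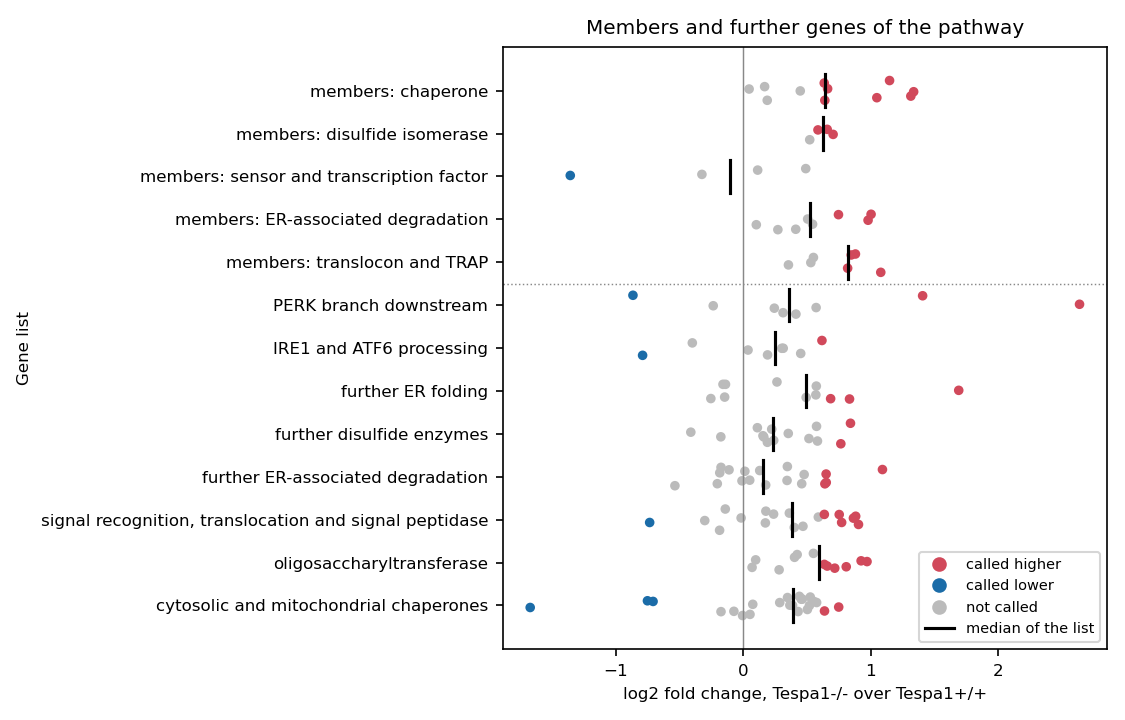
Log2 fold change (Tespa1-/- over Tespa1+/+) of every tested gene in the 5 role groups of the members, above the dotted line, and in 8 further lists, below it; each point is a gene, red where called higher, blue where called lower and grey where not called, and the bar is the median of the list. The medians are highest for the translocon and TRAP subunits (0.82) and the chaperones (0.64), and the sensors have a median of -0.10. With the length offset, which is not drawn, the member medians are 0.73 for the translocon and TRAP subunits and 0.70 for degradation. They are 0.67 for the chaperones, 0.55 for the disulfide isomerases and 0.24 for the sensors.

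Markers of several cell types moved with the genotype beside these genes. Of all genes tested, 14.0% were called higher and 19.2% lower. Of 5 promyelocyte genes, which encode granule proteins made in the ER, 4 were called higher, and their levels summed to between 10910 and 11640 CPM in Tespa1+/+ and between 17960 and 18770 CPM in Tespa1-/- samples, with none at 0. Of 10 neutrophil genes, 9 were called higher, with sums of 26.3 to 29.8 CPM and 481 to 507 CPM, and none was at 0 in a Tespa1-/- sample. All 8 stem cell and multipotent progenitor genes were called lower, with sums of 858 to 869 CPM and 457 to 464 CPM. Of the 9 plasma cell genes tested, of 11 listed, 2 were higher (Jchain and Igkc) and 4 lower (Sdc1, Prdm1, Irf4 and Ighm), with sums of 586 to 618 CPM and 663 to 694 CPM. Of 7 B cell genes tested, 5 were lower, with sums of 54.7 to 60.0 CPM and 40.6 to 43.9 CPM, and of 6 mast cell and basophil genes, 3 were lower, with sums of 111 to 149.5 CPM and 74.6 to 95.0 CPM. With the length offset, 4 promyelocyte and 9 neutrophil genes were called higher. Those called lower were 7 stem cell and multipotent progenitor, 6 B cell and 4 mast cell and basophil genes. Of the plasma cell genes, 2 were then higher and 3 lower. The part of these marker shifts in the levels of the members was not tested.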

How the data were processed

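Poly-A RNA of 6 sorted LSK samples was made into stranded libraries for Illumina NovaSeq sequencing, per the labels. The submitters' processing notes name CASAVA 1.8, HISAT2, StringTie, edgeR and GRCm38. The authors deposited 1 table with raw counts per gene and FPKM values (counts scaled by gene length and library total), and whether counting used the strand was not given in the sources used here. Groups and replicate numbers came from the sample titles. Counts were filtered (filterByExpr), scaled with TMM factors and tested across all 15332 genes with edgeR 4.0.16 (quasi-likelihood F-test, two-sided, no covariates, R 4.3.3) with Benjamini-Hochberg adjustment, and a call needed a fold over 1.5 at an adjusted p under 0.05. The SE was derived from the log2 fold change and its F statistic, and CPM are scaled with TMM factors. For the length offset, the deviation of the log2 CPM of each sample from the mean of all samples was fitted by loess (span 0.5) on the union exon length of GENCODE M21, and the fit entered edgeR as an offset. The script was tested on simulated counts.

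The members and lists were chosen with earlier results of these data known. All 34 members were named; of each further list, the called gene with the largest rise and that with the largest fall were named, given a mean count of at least 100 and no overlap between the groups, and markers were named beside a result. Promoter letters were searched on both strands of the RefSeq promoters; the shorter element was added later. The alternatives were RLE size factors, total counts, no filter, DESeq2 1.42.0, 10 or more counts in every sample, no fold minimum, a replicate block, each replicate left out, limma-trend (limma 3.58.1) on log2(FPKM + 1) and log2(FPKM + 0.1) for genes that reached an FPKM of 1 in 3 or more samples, and 2 length offsets. Depth ranged from 12856630 to 30576981 counts per sample.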

Additional observations from a re-analysis of the deposited data

How the results depend on the processing

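Of 542 values of single members under the alternatives, 505 had the same sign and stayed on the same side of the threshold for the adjusted p, 0.05, and 26 of the 34 members did so under every alternative. The fold of the rule for a call was not part of this comparison. Values that turned sign were those of Dnajb9, with log2 fold changes of -0.054 with total counts, -0.051 with limma-trend on log2(FPKM + 1), -0.054 on log2(FPKM + 0.1), -0.14 with the offset on the length implied by counts and FPKM, and -0.11 with that on union exon length, and that of Atf6, at 0.13 with union exon length, while the offset on the implied length left it at -0.09; the cause was not tested. Without a fold minimum, 28 members were called higher and 2 lower. Total counts shifted the median of all genes to -0.10 and the share of higher genes among called genes from 42.1% to 29.8%, with 12 members called higher and a members' median of 0.47. With them Hsp90b1, Calr, Dnajc3, Pdia3 and Pdia6 fell under the fold of the rule, at log2 fold changes of 0.54, 0.53, 0.56, 0.49 and 0.56. Limma-trend called 11 of 33 members higher with log2(FPKM + 1), with a median of 0.44, and 11 with log2(FPKM + 0.1), with a median of 0.45; Derl3 was not tested there. With the union length offset the median was 0.63. When each replicate was left out, between 15 and 19 members were called higher, and the median lay between 0.56 and 0.65. Counts of members called lower stayed at 1 in all other alternatives.

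Samples with the same replicate number did not deviate together (r of 0.046, 0.011 and 0.06), so the numbers were not read as pairs; with the replicate block, 16 members were called higher and 1 lower, with a median of 0.57. Under the block Syvn1 passed the test (0.47, edgeR adjusted p 0.0089) and Edem1 lost its call at any fold (edgeR adjusted p 0.0546). Depth limits Derl3 most, at no more than 39 counts in a sample.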
